A study of Mus musculus with 4 samples.

Results

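The respiratory chain subunits described were 71 nuclear genes whose symbols name subunits of respiratory chain complexes I, III and IV and of ATP synthase. They were chosen by symbol alone: Nduf followed by a, b, c, s or v and a number, Uqcr, Cox4 to Cox8 followed by a letter, and Atp5 followed by a letter. The muscle isoforms Cox6a2, Cox7a1 and Cox8b were left out of the members. The 71 genes, out of 12393 with a probe set of a single symbol, had 137 of the 22626 probe sets. They fell into complex I with 33 genes, complex III with 8, complex IV with 13 and ATP synthase with 17. Where a gene had several probe sets (40 of the 71), its value was that of the probe set with the highest mean.

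Liver RNA of 4 ABCA1-transgenic mice was measured, with 1 oligonucleotide array for each biological replicate. ABCA1 is the transporter that loads cellular cholesterol onto apolipoprotein A-I. The mice were males of the C57BL/6 strain, killed at 5 to 6 months on the NIH36 diet, and all 4 carried the transgene (ABCA1-TG). The labels conflict on the background all 4 share: the series title gives the LDL receptor as -/-, and the sample descriptions give it as +/-. The promoter that drives the transgene and the species it came from are not given in the sources used here. The labels hold 1 group. The design also names wild-type controls, whose arrays were not analysed here, so no value below shows an effect of the transgene. The mice are called mouse 1 to mouse 4 after the replicate number in the labels, each taken as 1 animal. Nothing in the labels says more about the animals, so p-values apply to these samples only, by the tests described below.

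The respiratory chain of the inner mitochondrial membrane passes electrons from NADH through complex I, ubiquinone, complex III and cytochrome c to oxygen at complex IV, and the proton gradient this builds drives ATP synthase. Complexes I, III and IV and ATP synthase are each assembled from core subunits, some of them encoded by mitochondrial DNA, and a larger number of small accessory subunits encoded in the nucleus. Liver is rich in mitochondria, and hepatocytes use the ATP for gluconeogenesis, urea synthesis and the secretion of lipoproteins.

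Signals are given as log2 of the deposited intensity, and a difference of 1 is a doubling of signal. Median array signals were 267 to 305. Pearson correlations between arrays, over probe sets, were 0.950 to 0.959. The defining hepatocyte transcripts were among the bright ones: albumin (Alb) read 15.86, 16.06, 15.94 and 15.97 in mice 1 to 4. Of the members, 66 had a mean of 10 or more on the log2 scale, and only Ndufb1 and Cox6b2 had any signal under 64, the lowest being 15.2. Levels of different genes are not set against each other, because probe sets differ in binding.

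Most respiratory chain subunits were held within a narrow range in the 4 livers. The median SD between mice was 0.15 over the 71 genes (range 0.05 to 1.17, n = 4 mice), against 0.26 over all 12393 genes and 0.16 over genes with a mean of 10 or more. The narrow range was close to that of other bright genes and is not particular to these subunits. The highest mouse exceeded the lowest by a median of 1.27-fold, and in 55 of the 71 genes by less than 1.5-fold. The median SD was 0.14 in complex I, 0.24 in complex III, 0.17 in complex IV and 0.13 in ATP synthase. Set against the SD that limma gives to a probe set of the same level, the median ratio was 1.00 over the members and 1.38 in complex III, the complex with the widest relative spread. Without mouse 4 the median SD of complex III was 0.14.

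No subunit passed a test of its spread between mice, nor did any other probe set. In limma's test of each variance against the prior at its level, with Benjamini-Hochberg adjustment over all probe sets, 0 of the 71 genes passed an adjusted p of 0.05, as did 0 of 22626 probe sets (0%). At an unadjusted p under 0.05 there were 2 members, Ndufa13 and Atp5md, against 3.71% of all probe sets. Without mouse 3 there were 5, and without mouse 1 or mouse 2 there was 1. Ndufa13 and Atp5md had SDs of 2.98 and 2.83 times the prior at their level. The smallest adjusted p of any member was 0.977. Since the skeletal muscle marker Mb, with a 91.8-fold range between mice, had an adjusted p of 0.247, the count of 0 does not show that subunits stayed within the spread of their level.

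**Figure D1:**
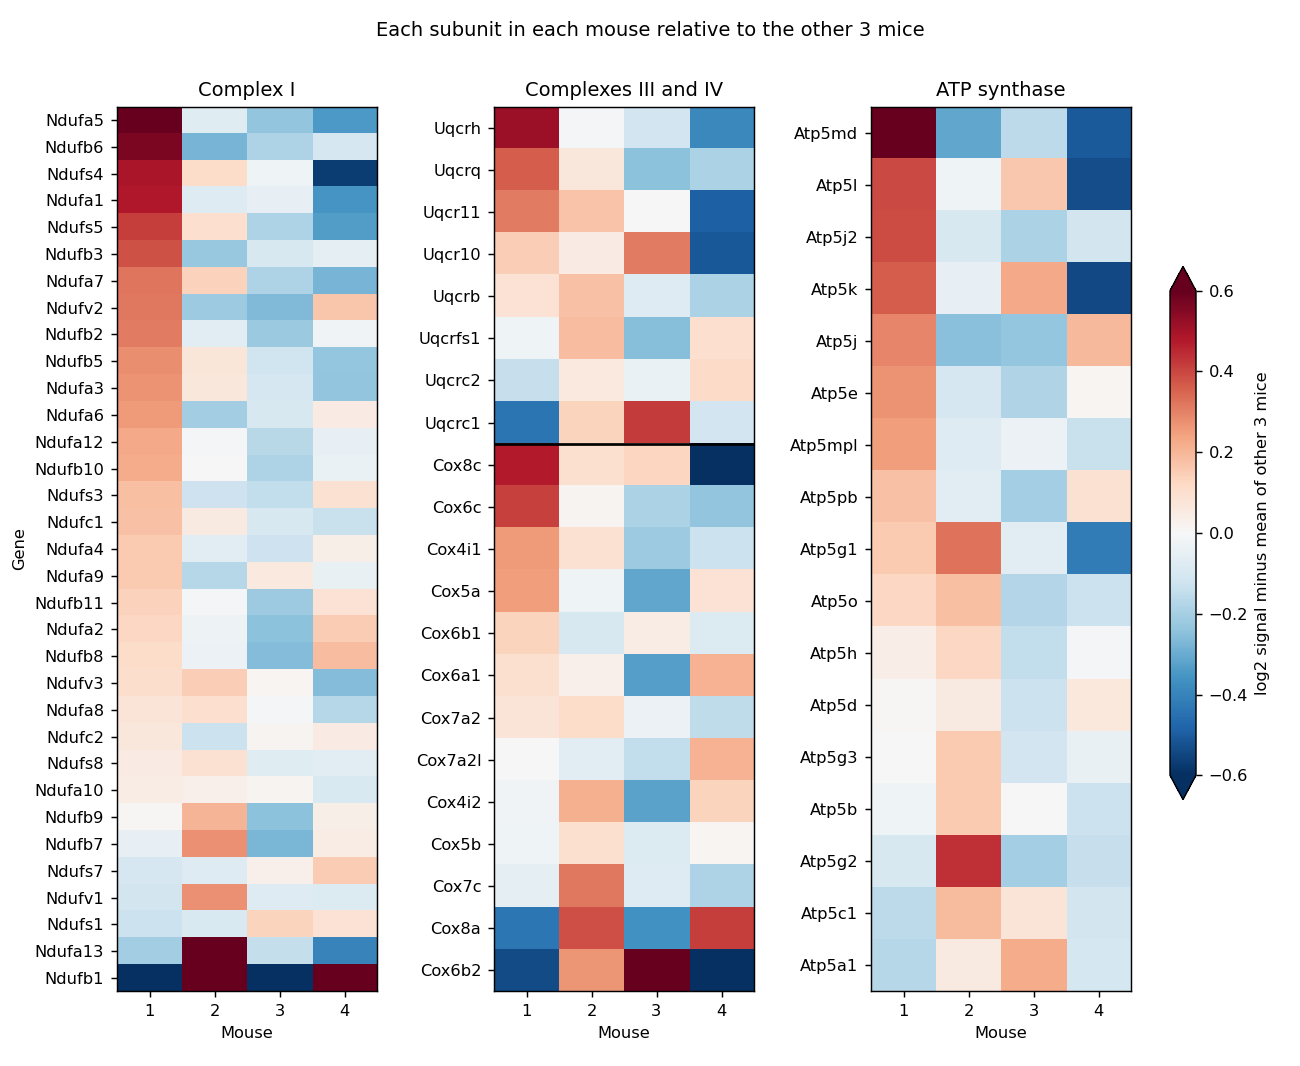
Each row is 1 of the 71 subunit genes, grouped by complex, and each column is 1 of the 4 mice. Colour gives how far the log2 signal of a mouse lies from the mean of its 3 companions, capped at 0.6 in both directions. Mouse 1 is above the others in 52 genes and mouse 3 below them in 55.

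The subunits differed by mouse in a common direction. In what follows, above or below the other mice means above or below their mean. Mouse 1 lay above the mean of the other 3 mice in 52 of the 71 genes, with a median difference of 0.14 on the log2 scale, while 42.8% of all genes did so, with a median of -0.05. It was the highest of the 4 mice in 37 members, or 52.1%, against 17.4% of all genes and 19.5% of genes with a mean of 10 or more. Mice 2, 3 and 4 were highest in 20, 5 and 9 members (29.8%, 33.5% and 19.3% of all genes). Mouse 1 was lowest in 9 members and mouse 2 in 7, against 28.9% and 20% of all genes, while mouse 3 was lowest in 28 and mouse 4 in 27, against 20.4% and 30.7%. Mouse 3 showed the opposite position: 55 of the 71 members lay below the other mice and 16 above, with a median of -0.12, although 59.8% of all genes were above in that mouse, with a median of 0.09. Without mouse 1 the median of mouse 3 was -0.064. Mouse 2 had a median of 0.05, with 42 members above (57.9% of all genes), which was 0.0051 without mouse 4 and -0.038 with the arrays shifted to a common median, and mouse 4 a median of -0.09, with 25 above (42.9% of all genes). The 4 differences of a gene share the same 4 values, and the genes share an array, so these counts are a description of 4 arrays without a test.

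By complex, the median difference of mouse 1 was 0.16 in complex I, 0.12 in complex III, 0.08 in complex IV and 0.16 in ATP synthase. That of complex IV was -0.02 without mouse 3, and without mouse 4 that of complex III was 0.019 and that of ATP synthase 0.091. The members above were 27 of 33, 5 of 8, 7 of 13 and 13 of 17, in the same order. In mouse 3 the medians were -0.13, -0.06, -0.15 and -0.13, and 6, 3, 3 and 4 members lay above. All 4 medians were positive in mouse 1 and negative in mouse 3, where complex III turned to 0.0034 without mouse 1. The medians of mouse 4 (-0.05, -0.19, -0.08 and -0.11) turned positive in all but complex III when the arrays were shifted to a common median.

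Other properties of the arrays differed in mouse 1 as well. The ratio of 3-prime to 5-prime control signal, which rises as RNA shortens, is given here as its log2. It was lowest in mouse 1 for Gapdh (1.67, against 1.94 to 2.03), Actb (1.82, against 1.88 to 2.12) and Pcx (4.09, against 4.71 to 4.79). The 18S ribosomal RNA control read 9.95 in mouse 1 and 8.75 to 8.98 in the others, also as log2. Markers of neighbouring tissues were low in that mouse. The 13 skeletal muscle markers were all below the mean of the other mice, with a median difference of -2.53, and 12 were lowest in mouse 1. Their summed signal was 1256 against 7847 to 10888. The 9 exocrine pancreas markers were also all below that mean (median -1.16, summed signal 1172 against 1538 to 6183). So were the 7 bile duct markers (median -1.35, summed signal 458 against 1152 to 1412). Of these, 6 pancreas and 6 bile duct markers were lowest in mouse 1, and the rest in mouse 3. No marker of these lists was at 0, but many were dim. Some signal under 64 occurred in 7 of the 13 muscle, 3 of the 9 pancreas and 5 of the 7 bile duct markers. For 2 of the bile duct markers all signals were under 64, and the lowest signal, of a pancreas marker, was 4.9. The 7 measured hepatocyte markers were closer, at a median of -0.09 with 2 above, and their summed signals ran from 297623 to 340418 over the 4 mice. Mouse 2 had the highest signal of all 9 exocrine pancreas markers (median 1.68). It lay above the mean of the other mice in all 7 hepatocyte markers (median 0.15). Mouse 3 lay above in all 9 macrophage markers (median 0.24) and below in 6 of 7 hepatocyte markers (median -0.05). The part of RNA length and of these cell types in the subunit differences was not tested. In bulk tissue, fewer cells of a type and less RNA per cell cannot be told apart.

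In mouse 1, the core and F1 subunits had a lower median difference than the remaining members. The subgroups were drawn after the values had been seen, so what follows is a description. The 14 core subunits of complexes I and III and F1 subunits of ATP synthase had a median difference of -0.06 in mouse 1, with 5 above the other mice, 3 highest and 7 lowest of the 4. The remaining 57 members had a median of 0.16, with 47 above, 34 highest and 2 lowest. They are not all small accessory subunits, and the medians were 0.00 in the c ring and 0.08 in complex IV. With the arrays shifted to a common median, or without mouse 2, the core median was 0.00 and 7 of 14 lay above, against 52 and 53 of the remaining 57. Over the alternatives tried, 4 to 7 core members and 43 to 53 of the others lay above.

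**Figure D2:**
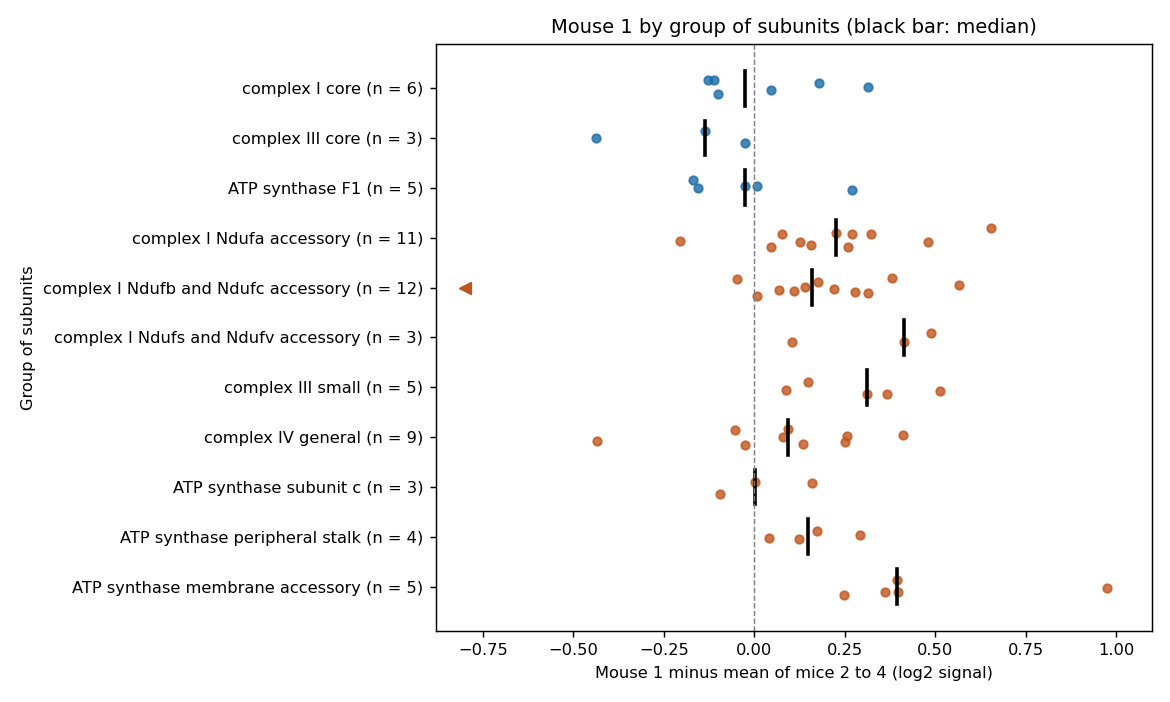
Each point is 1 subunit gene, placed by the difference in log2 signal between mouse 1 and the other 3 (their mean), in rows by structural subgroup with the subgroup's median as a line. The complex III core row lies below 0, the complex I core and F1 rows spread to both sides of it, and the membrane accessory row of ATP synthase wholly above it. The triangle at the left edge is Ndufb1, at -1.68, and Cox4i2, Cox6b2, Cox8c, Cox7a2l and Ndufa4 are not drawn.

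In complex I, the 6 measured core subunits hold the flavin and the iron-sulphur clusters that take electrons from NADH. Ndufv1, which carries the flavin and binds NADH, read 13.17, 13.46, 13.19 and 13.19 in mice 1 to 4. Mouse 2 stood above the other 3, which were nearly equal, on this probe set alone: another of similar brightness read 13.20, 13.12, 12.94 and 13.19, with mouse 1 highest. Its partner Ndufv2, a subunit with an iron-sulphur cluster, read 14.06, 13.66, 13.62 and 13.95, with mice 1 and 4 above mice 2 and 3.

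Ndufs1, the largest of the iron-sulphur subunits, read 12.51, 12.54, 12.71 and 12.67. Ndufs7, which holds the cluster next to the ubiquinone site, read 12.79, 12.80, 12.88 and 12.97. In both genes mice 3 and 4 were above mice 1 and 2, by at most 0.20 between the extremes. The second probe set of Ndufs7 had the reverse order, at 11.93, 11.93, 11.86 and 11.79. Ndufs3, a core subunit of the peripheral arm, read 13.47, 13.24, 13.23 and 13.40. Ndufs8, which holds further iron-sulphur clusters, read 14.07, 14.10, 13.98 and 13.99 and had an SD of 0.06, among the narrowest of the complex. The core median was -0.03 in mouse 1, with 3 of 6 above, and it turned to 0.083 with the mean over probe sets, 0.15 without _s_at and _x_at probe sets and 0.032 without mouse 2.

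The accessory subunits of complex I surround this core and are needed for its assembly and stability. Mouse 1 was above the others in 23 of 26, with a median difference of 0.20, and it was above in 10 of 11 in the Ndufa series (median 0.23). Ndufa5, an accessory subunit of the peripheral arm, read 11.37 in mouse 1, the highest, and 10.83, 10.70 and 10.62 in the others. Ndufa1, a small membrane subunit, read 13.64, 13.22, 13.24 and 13.02, again with mouse 1 highest. Ndufa10, by contrast, had the smallest SD of all members, 0.05, with 12.92, 12.91, 12.90 and 12.82.

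Ndufa13, also known as GRIM-19, was the one Ndufa subunit below the others in mouse 1. It read 14.49, 15.21, 14.54 and 14.34, so mouse 2 stood above the rest and was 1.82-fold higher than mouse 4 (SD 0.38). In limma's variance test its unadjusted p was 0.0207 and its adjusted p 0.977.

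The Ndufb and Ndufc subunits belong to the membrane arm. Mouse 1 was above in 10 of 12, with a median of 0.16. Ndufb6 read 12.12 in mouse 1 and 11.49, 11.56 and 11.62 in the others, which lay close together. Ndufb3 read 11.87, 11.41, 11.51 and 11.54, in the same arrangement. Ndufb1 went the other way and was the widest member of all, at 5.42, 7.67, 5.96 and 7.69 (SD 1.17, 4.80-fold). Mice 1 and 3 were low and mice 2 and 4 high for this single dim probe set, and its adjusted p was 0.977.

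The remaining accessory subunits, Ndufs4, Ndufs5 and Ndufv3, were above the other mice in mouse 1 and lowest in mouse 4. Ndufs4, whose loss in patients and mice causes Leigh-like disease, read 11.35, 11.06, 10.96 and 10.56. Ndufs5 read 11.82, 11.58, 11.37 and 11.26. Ndufa4, named as a complex I subunit and since assigned to complex IV, read 12.92, 12.75, 12.71 and 12.83, and moving it to complex IV left the medians of both complexes on the same side of 0 in mouse 1.

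Complex III takes electrons from ubiquinol to cytochrome c. Its members split in mouse 1: the 3 core genes were all below the mean of the other mice (median -0.14) and the 5 small subunits all above it (median 0.31). The core median was -0.025 with the mean over probe sets, and that of the small subunits 0.17 without mouse 4 and 0.15 without _s_at and _x_at probe sets. Uqcrc1, core protein 1, read 13.01, 13.44, 13.65 and 13.25, with mouse 1 lowest and mouse 3 highest (SD 0.27, 1.56-fold). Its partner Uqcrc2 read 13.37, 13.52, 13.44 and 13.56 and was the narrowest of the complex, with an SD of 0.08. Uqcrfs1, the Rieske iron-sulphur protein, read 13.99, 14.15, 13.82 and 14.09. Mouse 1 was lowest for both core proteins on these probe sets, and mouse 3 for the Rieske protein. The other probe set of Uqcrc2 had mouse 1 highest, at 13.46, 13.15, 13.31 and 13.45.

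Uqcrh, the acidic hinge protein that helps cytochrome c dock, was the widest of the complex. It read 11.11, 10.72, 10.64 and 10.43 (SD 0.28, 1.60-fold), and mouse 1 was highest. Uqcrq, a ubiquinone-binding small subunit, read 12.29, 12.07, 11.84 and 11.88. Uqcrb, another small subunit, read 15.20, 15.27, 15.08 and 14.99 (SD 0.12) on its brightest probe set, where mouse 2 and not mouse 1 was highest. For Uqcr10 and Uqcr11, the smallest subunits, mouse 4 was the low one, at 11.11 against 11.53 to 11.72 and at 11.39 against 11.76 to 11.99.

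Complex IV passes electrons from cytochrome c to oxygen. Its catalytic core is encoded by mitochondrial DNA and was outside the members. Among the 9 general nuclear subunits, mouse 1 was above in 6 (median 0.09). Mouse 3 was below in 8 of them (median -0.19, or -0.11 without mouse 1) and the lowest mouse in 4. Cox4i1, the subunit through which ATP inhibits the enzyme, read 14.20, 14.07, 13.84 and 13.90. Cox5a read 14.39, 14.18, 13.97 and 14.27, and Cox5b, its zinc-binding neighbour, 14.92, 15.01, 14.88 and 14.95. Cox5b had the smallest SD of the complex, 0.06, followed by Cox6b1, which faces the intermembrane space, at 14.67, 14.50, 14.60 and 14.51 (SD 0.08).

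Several complex IV subunits have isoforms used in particular tissues. Cox4i2, the lung and hypoxia isoform, read 7.99, 8.16, 7.76 and 8.10, with no mouse apart. Cox6b2, the testis isoform, was the dimmest and the widest of the complex, at 4.48, 5.08, 6.04 and 3.93 (SD 0.91, 4.34-fold). Cox8c, another isoform of subunit 8 known from testis, read 11.30, 11.02, 11.04 and 10.42 (SD 0.37, 1.84-fold), with mouse 4 low. A probe set signal does not by itself show that liver makes these isoforms, since no detection calls were used.

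Against the prior at their level, the SDs of the liver isoforms Cox8a, Cox6a1 and Cox7a2 were 2.09, 1.44 and 0.65 times as large. Those of Cox4i2, Cox6b2 and Cox8c were 0.58, 1.11 and 2.03 times as large. Cox8a read 11.82, 12.43, 11.87 and 12.45 (SD 0.35, 1.55-fold), so mice 2 and 4 were high and mice 1 and 3 low on this probe set. A second read 11.08, 11.40, 10.56 and 10.80, with mouse 3 lowest and mouse 4 next. Mouse 1 was above the mean of the others on this one and on a further, dim one, where mouse 3 was also lowest. Cox6a1 read 15.30, 15.25, 14.98 and 15.39, with mouse 3 low, and Cox7a2 read 14.21, 14.24, 14.13 and 14.04. Cox7a2l, a relative of Cox7a2 known from work on supercomplexes, read 12.82, 12.77, 12.71 and 12.98.

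The muscle isoforms left out of the members were measured too. Cox6a2 read 8.26 in mouse 1 and 9.50, 9.15 and 9.24 in the others, the direction of the skeletal muscle markers. Cox7a1 read 4.85, 2.56, 6.53 and 5.16, and Cox8b read 4.20, 3.93, 4.61 and 4.39. Both were dim and followed no such order, and none of the 3 passed limma's test (0 also at an unadjusted p under 0.05).

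ATP synthase has a catalytic F1 head, a ring of c subunits that turns in the membrane, a peripheral stalk that holds the head still, and small membrane subunits that join monomers into dimers. The F1 genes were narrow. Atp5a1, the alpha subunit, read 14.29, 14.46, 14.59 and 14.34. Atp5b, the catalytic beta subunit, read 14.20, 14.33, 14.21 and 14.12. Atp5c1, the central gamma shaft, read 14.75, 15.01, 14.92 and 14.78. Mouse 1 was lowest for alpha and gamma on these probe sets. A second probe set of alpha had mouse 3 lowest and mouse 1 slightly above the mean of the others, at 14.19, 14.19, 14.04 and 14.26. The F1 median in mouse 1 was -0.02, with 2 of 5 above. Atp5d, the delta subunit, had the smallest SD of the complex at 0.07, followed by Atp5h of the peripheral stalk at 0.09.

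The c ring is made from 3 genes that encode the same mature protein, and all 3 were highest in mouse 2. Atp5g1, whose mRNA is the regulated one in several tissues, read 10.58, 10.71, 10.41 and 10.15. Atp5g2 read 10.57, 10.97, 10.49 and 10.53, and Atp5g3 read 14.89, 15.01, 14.81 and 14.86. The median difference of mouse 2 over the 3 was 0.33 (0.21 without mouse 4), in the mouse whose pancreas and hepatocyte markers were also high, and that of mouse 1 was 0.00.

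The 5 small membrane subunits were all highest in mouse 1, with a median difference of 0.39, and 4 of them were lowest in mouse 4, with a median of -0.50. The first median was 0.25 without mouse 4, and the second was -0.20 without mouse 1 and -0.61 without mouse 2. Atp5md, also called DAPIT, which supports synthase dimers, read 12.15 in mouse 1 and 11.18, 11.30 and 11.04 in the others. Mouse 1 was highest, 2.15-fold above mouse 4 (SD 0.50), and limma's unadjusted p was 0.0252 with an adjusted p of 0.977. Atp5k, subunit e, read 12.95, 12.64, 12.85 and 12.27 (SD 0.30, 1.60-fold). Atp5l, subunit g and its partner at the dimer contact, read 8.88, 8.57, 8.71 and 8.19. The order of the 4 mice was the same for subunits e and g. Atp5j2, subunit f, read 13.79, 13.43, 13.36 and 13.42, and Atp5mpl read 11.00, 10.75, 10.78 and 10.71. The 4 peripheral stalk genes were also above in mouse 1, by a median of 0.15 (0.096 without mouse 3), the widest of them being Atp5j at 13.27, 12.86, 12.88 and 13.20.

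**Figure D3:**
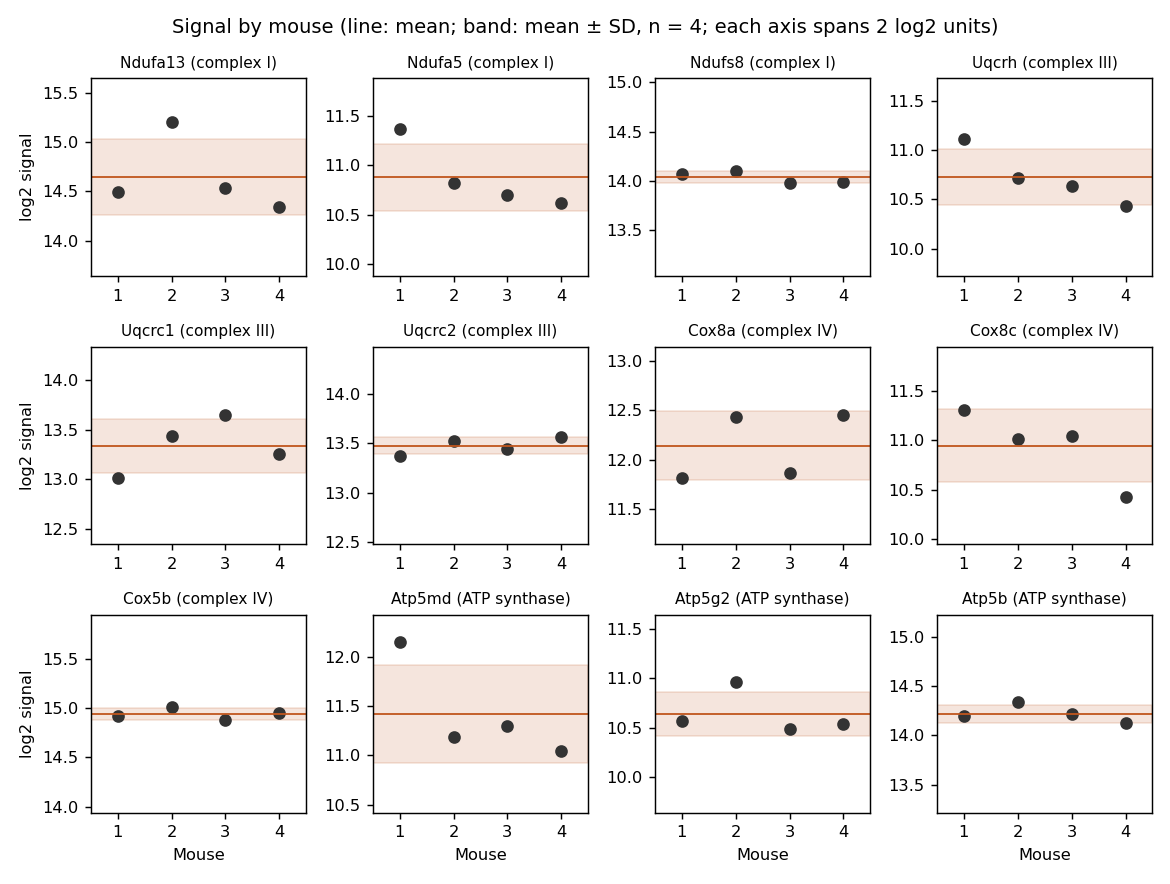
Log2 signal of selected subunits in each of the 4 mice, 1 point per mouse. Small subunits such as Atp5md, Ndufa5 and Uqcrh have mouse 1 above the other 3, while Uqcrc1 has it lowest.

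Promoters of some members named above that were highest in mouse 1 are shown beside that of 1 that was not. They were picked by hand and leave out members with larger mouse 1 differences. Atp5k, which is shown, had 0.36, and Ndufb6, which is not, had 0.57. RefSeq (GRCm38.p6) promoter windows of 250 bases before and 50 after the start were matched for 59 of the 71 genes, in 64 windows. Windows on 1 chromosome were left out for the members but kept among the windows of all genes and of bright genes. The letters below are the 250 bases before the start, 5′ to 3′ on the gene's strand, with matches to searched motifs in capitals. Atp5md (chr19:47090648-47090897, minus strand) has the SP1 motif GGGCGG from 80 bases before the start. Atp5k (chr5:108434400-108434649, minus strand) and Ndufa5 (chr6:24527691-24527940, minus strand) each have the NRF1 motif, GCGC on both sides of any 2 bases, from 50 and 26 bases before it. Uqcrh (chr4:116075071-116075320, minus strand) has the ETS motif CCGGAAG, on the opposite strand, from 10 bases before the start. Atp5g3 (chr2:73911327-73911576, minus strand), which was highest in mouse 2, has the oestrogen-related receptor (ERR) motif AAGGTCA, on the opposite strand, from 52 bases before the start. Further matches lie at or after the start in the full windows and are not shown: ETS for Atp5md, ETS and ERR for Atp5k, SP1 for Ndufa5 and NRF1 for Atp5g3.
Atp5md: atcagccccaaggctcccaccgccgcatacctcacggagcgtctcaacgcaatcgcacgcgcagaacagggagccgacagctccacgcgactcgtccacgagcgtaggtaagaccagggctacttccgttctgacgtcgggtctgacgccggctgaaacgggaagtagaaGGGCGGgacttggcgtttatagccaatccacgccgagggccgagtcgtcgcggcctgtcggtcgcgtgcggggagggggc
Atp5k: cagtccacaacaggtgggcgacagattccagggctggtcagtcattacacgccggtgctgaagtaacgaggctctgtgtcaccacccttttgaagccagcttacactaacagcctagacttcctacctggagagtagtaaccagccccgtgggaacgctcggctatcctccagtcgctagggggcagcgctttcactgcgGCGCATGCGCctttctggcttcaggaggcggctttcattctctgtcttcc
Ndufa5: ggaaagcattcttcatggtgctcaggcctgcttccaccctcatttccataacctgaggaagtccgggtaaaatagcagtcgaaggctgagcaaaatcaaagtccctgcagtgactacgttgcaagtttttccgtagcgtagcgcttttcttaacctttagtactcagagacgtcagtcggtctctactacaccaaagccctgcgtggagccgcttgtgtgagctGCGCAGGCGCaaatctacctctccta
Uqcrh: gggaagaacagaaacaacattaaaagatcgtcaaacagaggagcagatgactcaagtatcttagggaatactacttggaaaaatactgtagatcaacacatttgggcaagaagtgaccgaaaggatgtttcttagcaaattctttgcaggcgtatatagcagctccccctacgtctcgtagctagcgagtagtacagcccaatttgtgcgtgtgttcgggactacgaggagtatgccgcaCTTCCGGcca
Atp5g3: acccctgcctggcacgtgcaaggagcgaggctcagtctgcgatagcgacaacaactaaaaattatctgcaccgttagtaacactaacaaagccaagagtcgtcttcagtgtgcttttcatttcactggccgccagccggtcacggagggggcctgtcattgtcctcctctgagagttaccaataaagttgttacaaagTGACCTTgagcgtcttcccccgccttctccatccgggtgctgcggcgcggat

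The motifs are those of factors known to bind nuclear genes of respiration. Both strands of the 300-base windows were searched, and matches of different motifs may overlap. The NRF1 motif occurred in 21.9% of the 64 member windows and 6.23% of all 32851 windows. In windows of genes on this array with a mean of 10 or more it occurred in 14.1%. The ETS motif occurred in 23.4% of member windows, 8.86% of all and 19.1% of those of bright genes. The YY1 motif AAGATGGC occurred in 14.1%, 2.75% and 5.15%, in the same order. For ERR the shares were 9.38%, 4.72% and 3.74%, and for SP1 39.1%, 35.7% and 62.5%. Median GC content was 58.0% in member windows, 52.7% in all windows and 60.7% in those of bright genes. Members with and without the NRF1 motif had median differences of 0.09 (13 genes) and 0.16 (46 genes) in mouse 1, and with and without the ETS motif of 0.27 (15 genes) and 0.13 (44 genes). For SP1 these were 0.18 (24 genes) and 0.14 (35 genes), for YY1 0.18 (9 genes) and 0.13 (50 genes), and for ERR 0.34 (6 genes) and 0.13 (53 genes). Mouse 1 was above the mean of the other mice in 6 of 6 members with the ERR motif, Atp5g3 by a difference that rounds to 0.00. It was above in 38 of 53 without that motif. With and without the motif, the counts were 10 of 13 and 34 of 46 for NRF1 and 13 of 15 and 31 of 44 for ETS. They were 19 of 24 and 25 of 35 for SP1, and 8 of 9 and 36 of 50 for YY1. The letters are a description and do not show binding.

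Different probe sets of the same subunit were then compared, since each reads the same RNA by other oligonucleotides. Mouse 1 was above the mean of the other mice on every probe set in 22 of the 40 subunits with several, or 55%. Among the 4956 such genes the share was 18.7%. Mouse 1 was above that mean on none of the probe sets in 1 subunit. It had the highest signal of all mice on every probe set in 12 of the 40 subunits, a count whose share over all such genes was not taken. The probe sets not chosen as a gene's value (66) had a median difference of 0.24 in mouse 1, with 53 above. With 1 value per gene, 42.8% of all genes were above in mouse 1, and the share over all probe sets was not taken. All these counts come from the same arrays.

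A test of the mouse differences that probe sets of a gene share, against their disagreement, was fitted over the 4956 genes with limma's moderated variances. It passed 0 of the 40 subunits at an adjusted p of 0.05, against 17 genes, or 0.343%. The probe sets of a gene share each array, so a difference of a whole array also counts as shared in this test. At an unadjusted p under 0.05 there were 11 of 40 subunits and 8.92% of all such genes. Without mouse 1, 2, 3 or 4 there were 7, 16, 8 and 12, and 23 with the arrays shifted to a common median. These 11 were Atp5j2, Atp5k, Cox7a2l, Cox8a, Ndufa5, Ndufa7, Ndufb11, Ndufb5, Ndufb6, Ndufb9 and Ndufv2, and the smallest adjusted p was 0.163, for Atp5k. With the arrays shifted to a common median, Cox7a2l (adjusted p = 0.0281) and Ndufv2 (adjusted p = 0.0494) passed, among 55 genes.

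The 3 probe sets of Atp5k all had mouse 1 highest, and the 2 others read 13.07, 12.43, 12.57 and 12.39, and 11.96, 11.68, 11.83 and 11.60. The second probe set of Ndufa5 read 10.97, 9.76, 10.02 and 9.78, a wider separation of mouse 1 than on the first. That of Ndufb6 read 12.13, 11.45, 11.36 and 11.61. In these 3 genes mouse 1 exceeded every other mouse on each probe set.

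Elsewhere the probe sets of a subunit disagreed. Cox5b had SDs from 0.06 to 0.97 over 6 probe sets and Ndufa12 from 0.12 to 1.23 over 4, in each case with the widest on a dim probe set. For Ndufs8 the SDs ran from 0.04 to 0.43 over 6 probe sets, and the widest read 13.35, 12.38, 12.51 and 12.69, so mouse 1 stood apart there and not on the brightest. Cox6b1 likewise had a second probe set at 12.69, 12.17, 11.78 and 11.45, and that of Uqcrb read 11.59, 10.81, 10.61 and 10.80. The second probe set of Cox6c, at 12.54, 11.07, 11.42 and 12.30, had mice 1 and 4 high, while the brightest, at 13.85, 13.56, 13.40 and 13.37, had mouse 1 alone high. Of the 71 chosen probe sets, 18 had identifiers ending in _s_at or _x_at, which may read more than 1 transcript, including processed pseudogene copies.

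**Figure D4:**
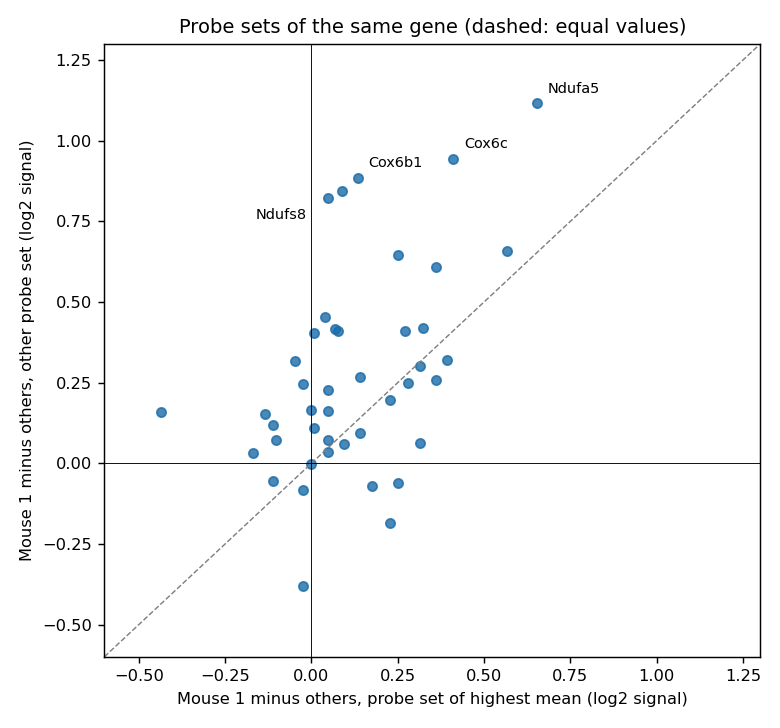
Each point is a further probe set of a subunit with a mean of 10 or more on the log2 scale (43 in all), with the mouse 1 difference of the gene's brightest probe set on the horizontal axis and its own on the vertical axis, both log2. In 36 of the 43, mouse 1 lies above the mean of the other mice. It does so in 45.5% of all genes with a mean of 10 or more, at 1 value per gene. Cox6b1 and Ndufs8 differ far more on the further probe set than on the brightest.

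The other genes of the pathway were read by lists, and in each of them 0 genes passed limma's test, adjusted or at an unadjusted p under 0.05. Complex II, which feeds electrons from succinate and is encoded wholly in the nucleus, had 4 of 4 genes measured and a median SD of 0.10. Its narrowest gene was the flavin subunit Sdha, at 13.73, 13.80, 13.72 and 13.79, and its widest the membrane anchor Sdhd, at 12.38, 12.40, 11.93 and 12.45, with mouse 3 low. The median difference of mouse 1 in complex II was 0.06. Cyc1, the cytochrome c1 of complex III that the symbol rule does not take in, read 13.99, 14.08, 14.10 and 13.99. Cycs, cytochrome c itself, read 13.99, 13.57, 13.44 and 13.62, with mouse 1 apart. Of the subunits encoded by mitochondrial DNA, ND5 of complex I was measured, at 15.52, 15.43, 15.30 and 15.45.

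The list of assembly factors also held Ndufab1, an accessory subunit of complex I that the symbol rule does not take in, and Atpif1, the inhibitor of ATP synthase. Over its 18 measured of 23 listed genes, the median differences of mice 1 to 4 were 0.01, 0.01, 0.13 and -0.06. The widest was Cox16, at 8.89, 8.60, 8.21 and 7.94, and the narrowest Ecsit, at 9.79, 9.91, 9.95 and 9.82. Of the factors that transcribe nuclear respiratory genes or maintain mitochondrial DNA, 14 of 15 were measured, with medians of 0.18, -0.07, -0.12 and 0.08. Ppargc1a, the coactivator PGC-1alpha, was the widest at 8.93, 9.20, 8.16 and 8.93, with mouse 3 low, and Polg2, the accessory subunit of the mitochondrial polymerase, the narrowest at 10.07, 10.04, 10.12 and 10.17. How these lists differ from the subunits was not tested.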

How the data were processed

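Liver RNA of 4 ABCA1-transgenic mice was hybridised to 1-colour oligonucleotide arrays after RiboAmp amplification of 2 ug of total RNA, which starts at the poly(A) tail, per the labels' protocols. The authors deposited 1 linear signal intensity per probe set and array. RMA is listed, with no version, in the submitters' processing notes. With 2% trimmed from both ends, every array had a mean of 1000, and the scaling step behind this is not given in the sources. Detection calls were not used.

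The log2 of each intensity was taken as deposited, without pseudocount or normalization, and 64 control probe sets were left out. Gene names came from the platform annotation. Of 22626 probe sets, 20380 had 1 symbol, 691 several and 1555 none, and none was named from several. Each variance between the 4 arrays was tested with limma 3.58.1 in R 4.3.3 against a prior trended on mean level and fitted robustly, by an upper-tail F with Benjamini-Hochberg adjustment over all probe sets and a threshold of 0.05. The prior degrees of freedom were those of the bulk of probe sets, set after a test on simulated data. The shared test compared the mean square between mice over a gene's probe sets with their residual. The number of arrays limits the precision.

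The members and lists were chosen with earlier results of these data known, and the subgroups of subunits and the promoters shown after the values were seen. Named in full by rule were members past a test, the 2 widest and 2 narrowest of each complex, catalytic or core subunits, isoform groups and subunits whose probe sets differ most in SD; the others were chosen after their values were seen. Alternatives changed the normalization, low signals (a floor of 64, a pseudocount of 16, or no lowest 25% of levels), the prior, the choice of probe set, the membership of doubtful subunits and the arrays used. Of the further cell type lists, the median differences of mouse 1 were -0.31 for 5 adipocyte, -0.14 for 9 macrophage and -0.24 for 6 stellate markers. They were -0.15 for 5 endothelial, -0.11 for 4 lymphocyte and 0.25 for 2 erythroid markers. The 2 erythroid markers went opposite ways, Hba-a1 at 0.76 and Alas2 at -0.27.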

Additional observations from a re-analysis of the deposited data

Results flagged for a closer look

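Of 76 subunits and related values checked, 3 had 1 mouse farther from the other 3 than Dixon's critical value for 4 samples allows, and 1 in 20 is the share that chance gives. Over all genes 732 of 12393, or 5.91%, did so. Ndufv1, the NADH-binding subunit of complex I, was high in mouse 2, at 13.46 against 13.17 to 13.19, a gap of 0.914 of the range. Atp5j2, subunit f of ATP synthase, was high in mouse 1, at 13.79 against 13.36 to 13.43, a gap of 0.838 of the range. Atp5g2, a gene of the c ring, was high in mouse 2, at 10.97 against 10.49 to 10.57, a gap of 0.8295 of the range.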

How the results depend on the processing

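No paired analysis was possible because there is 1 group. The alternatives with the other probe sets of the members, and all those on subgroups and on the count highest in mouse 1, were chosen after seeing the data. The count of subunits past the variance test was 0 under each alternative, which is no sign of stability where the test passed no probe set of the array, and the lowest adjusted p of a named subunit over 465 refits was 0.156, for Cox6b2 with signals under 64 raised to 64. The median difference of mouse 1 over all members ran from 0.12 to 0.24 and that of mouse 3 from -0.24 to -0.06. Subunits highest in mouse 1 numbered 36 to 48. Over the 5 sets of members, mouse 1 kept its sign in 64 of 65 alternatives, mouse 2 in 61, mouse 3 in 62 and mouse 4 in 60.

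Shifting the arrays to a common median moved the median differences of bright genes to 0.04, -0.09, -0.11 and 0.16 in mice 1 to 4. Under that shift mouse 2 turned to -0.038 over all members and -0.039 in ATP synthase. Mouse 4 turned to 0.050 over all members, 0.031 in ATP synthase, 0.089 in complex I and 0.059 in complex IV and in its general subunits, and F1 turned to 0.043, -0.036 and 0.035 in mice 1, 2 and 4. The core and F1 median turned to 0.00412 in mouse 1 and -0.034 in mouse 2, the shared test passed 2 subunits, and 1 subunit was under an unadjusted p of 0.05 in the variance test. Relative to the shift of bright genes, the members of mouse 4 therefore stayed low. That unadjusted count was 0 with a constant prior, 4 with the mean over probe sets, 1 with the floor of 64, and 1 to 5 leaving out each mouse. Leaving out each other mouse, the core and F1 median of mouse 1 ran from -0.098 to 0.00386, the latter without mouse 2. With quantile normalization mouse 3 turned to 0.066 in F1 and 0.015 in core and F1. With the mean over probe sets the core of complex I turned to 0.083 in mouse 1, and core and F1 to -0.00636 in mouse 2. Without _s_at and _x_at probe sets the core of complex I was 0.15 in mouse 1 and F1 0.22 in mouse 3. On the other probe sets complex III was 0.30 in mouse 1 and -0.37 in mouse 4. The median SD of complex III was 0.14 to 0.28 leaving out each mouse. Apart from the common median, the cause of these moves was not tested. Low signals, such as those of Ndufb1 and Cox6b2, are the least precise, since background treatment is unknown.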
